A study of Rattus norvegicus with 6 samples.

Results

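Genes for potassium channels of the vessel wall and their partner subunits, 9 in all, were followed in the aorta of spontaneously hypertensive rats (SHR), an inbred strain with high blood pressure. They were Kcna5, Kcna2, Kcnma1, Kcnmb1, Kcnj2, Kcnj8, Kcnj11, Abcc8 and Abcc9, taken by name, and every probe set annotated with one of these as its single symbol was used. That gave 9 of the 4736 genes and 18 of the 8740 probe sets that are not controls, and 0 of the 308 probe sets with several symbols named a member. Both groups were SHR and differed in wheel access. Runners ran voluntarily in wheel cages for 5 weeks, and non-runners did not run. Each group had 3 Affymetrix rat arrays, A, B and C, and each array held total RNA pooled from 3 aortae. The labels give no age, sex, blood pressure or running distance, nor how animals were placed in pools, so p-values measure the spread between these pools, which may be partly technical.

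Potassium channels let potassium leave a smooth muscle cell and so hold its membrane potential negative. A more negative membrane keeps voltage-gated calcium channels shut, calcium entry falls and the vessel relaxes. Voltage-gated Kv1 channels (Kcna5, Kcna2) open on depolarisation, and large-conductance BK channels (pore Kcnma1, smooth muscle subunit Kcnmb1) open on calcium and voltage. The inward rectifier Kir2.1 (Kcnj2) responds to external potassium, while ATP-sensitive KATP channels join a Kir6 pore (Kcnj8 or Kcnj11) to a sulphonylurea receptor (Abcc8 or Abcc9) and open when cell energy is low. In the rat assembly GRCr8, Kcnj8 lies beside Abcc9 and Kcnj11 beside Abcc8 in the order of protein-coding genes, so each pore gene has a receptor gene as its neighbour.

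No member passed the test across the array. The BK and KATP channel transcripts that were well above background differed between groups by at most 0.43 on the log2 scale, with intervals that include 0. The Kcna5 probe set was lower on all 3 runner arrays than on any non-runner array, but it was a dim signal near the level of control probe sets. Kcnj8, the Kir6.1 pore, read higher on each runner array, and 1 of the 2 Kcnj11 probe sets read lower, both within the error of the comparison. By limma at an adjusted p under 0.05, 0 of the 10 tested member probe sets were called, against 0% of all 5244 tested. At an unadjusted p under 0.05 it was 1 of 10, against 8.09% of all tested. That 1 was the Kcna5 probe set, which passed the filter on dim signals only through the non-runner arrays, so the count is a description and supports nothing. Deposited intensities of the groups did not overlap for 3 of 10, Kcna5 again among them, against 14.9%.

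As a yardstick for dim signals, 19 controls, which read yeast genes or the sense strand, gave 114 values with a median of 9.25 and a highest value of 55.4. Their 95th percentile, 40.8, is called the control level. Of the 18 member probe sets, 7 lay above it on all 6 arrays, in Kcnmb1, Kcnj8, Kcnj11 and Abcc9, and 9 lay below it on every array. The dimmest 40% of probe sets by mean over the 6 arrays were left out of the test, which kept 10 member probe sets of 6 genes and removed 8, among them all of those for Kcna2, Kcnj2 and Abcc8. Differences are runner minus non-runner on the scale log2(intensity + 2.4) after quantile normalization, while single values are the deposited intensities. Smooth muscle markers (8 genes, 17 probe sets) were bright, with summed intensity between 26598 and 30740.5 on the 6 arrays, and their ranges overlapped between groups. Non-runner B stood apart in RNA quality, with a beta-actin 3'/5' ratio of 2.14 against 1.22 to 1.67 on the others.

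**Figure D1:**
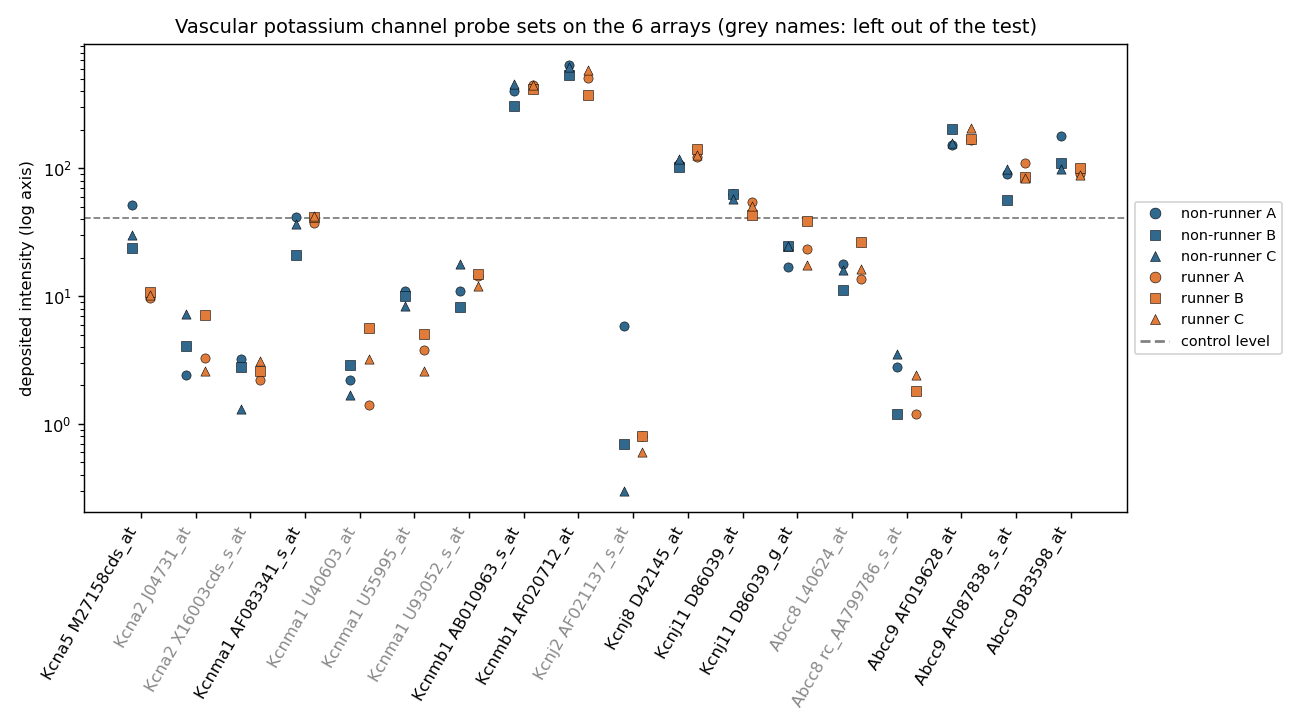
Deposited intensity (log axis) of the 18 member probe sets on the 6 arrays, blue for non-runners and orange for runners, with marker shape for chip A, B or C. The dashed line is the control level of 40.8. Kcnmb1, Kcnj8, Abcc9 and 1 Kcnj11 probe set sit above it, and the probe sets of Kcna2, Kcnj2 and Abcc8 sit below it.

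Promoter sequences are shown for Kcna5, whose probe set had the smallest p among the members, and for Kcnmb1, whose 2 probe sets were far above the control level. They come from RefSeq on the build GRCr8 and run from 250 bases before to 50 bases after the annotated start. Of the 9 members, 7 had a promoter in that table. Capitals mark matches to the E-box motif CANNTG, searched on both strands. The array holds no measurement at these promoters.
Kcna5, chr4:161043760-161044059, minus strand: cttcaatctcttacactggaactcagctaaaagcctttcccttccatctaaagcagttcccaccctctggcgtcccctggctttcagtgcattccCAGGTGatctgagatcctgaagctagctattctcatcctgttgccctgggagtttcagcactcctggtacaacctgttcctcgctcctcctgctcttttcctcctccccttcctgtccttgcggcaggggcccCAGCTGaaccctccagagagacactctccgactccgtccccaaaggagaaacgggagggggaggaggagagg
Kcnmb1, chr10:19061849-19062148, plus strand: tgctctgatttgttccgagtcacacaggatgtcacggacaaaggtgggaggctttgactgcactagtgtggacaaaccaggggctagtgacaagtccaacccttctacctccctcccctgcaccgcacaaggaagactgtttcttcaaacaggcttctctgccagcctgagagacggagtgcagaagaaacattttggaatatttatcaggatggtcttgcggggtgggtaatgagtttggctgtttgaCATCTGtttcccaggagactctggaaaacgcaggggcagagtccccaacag

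The Kcna5 promoter held 2 E-box matches and the Kcnmb1 promoter 1, a motif found in 72.1% of the 33469 promoters of the same length. Neither window held a CArG box, the serum response factor motif of many smooth muscle genes, which was in 1.64% of all promoters, nor GGGCGG, the GC box, which was in 33.1%. Their GC content was 56.3% for Kcna5 and 51.7% for Kcnmb1, beside a median of 51.7% over all promoters. The other 5 member promoters had 67% to 78.3% GC and each held at least 1 GC box. These matches describe letters in a window and show no binding.

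Kcna5 encodes Kv1.5, a delayed rectifier channel of smooth muscle and of atrial heart muscle. Its only probe set (M27158cds_at) measured 51.6, 24.0 and 30 on non-runners A, B and C. On runners A, B and C it measured 9.7, 10.7 and 10.2. All runner values lay below all non-runner values, and the non-runner arrays were widely spread while the runner arrays sat together. Only non-runner A exceeded the control level, and 22 of the 114 control values (19.3%) were above the lowest non-runner value and 52 (45.6%) above the highest runner value. Group means were 35.2 ± 14.5 and 10.2 ± 0.5 (intensity, SD, n = 3), both below the control level, so no fold is given.

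The filter matters for this gene. By mean level its probe set ranked at the 40.9th percentile of all probe sets, just inside the 40% limit, at the 53.3rd on non-runner arrays alone and at the 29.2nd on runner arrays alone. It thus entered the test through the group where it was high. The fitted difference, -1.57 ± 0.24 (log2, SE), was taken between signals not above background and is not the size of a change. It moved with the pseudocount, to -1.69 at 1 and -0.97 at 16, and to -1.95 with the beta-actin ratio as a covariate. The limma adjusted p over all 5244 probe sets was 0.214, from 0.000176 before adjustment. With no filter it was 0.298, and over all alternatives it ranged from 0.0676 to 0.61. Leaving out any 1 non-runner array put the probe set under the filter, and in fits with no filter the difference was then -1.30 without non-runner A, -1.78 without B and -1.63 without C.

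Markers of other cell types that can carry Kv channels were set beside this result. The nerve and Schwann cell list (15 of 18 genes on the chip, 24 probe sets) summed to 1750.1 to 1865.3 on non-runner arrays and to 1253.4 to 1597.5 on runner arrays, with 12 of 13 tested probe sets lower, beside 2649 of all 5244. The separation of these sums rested on 1 bright probe set of Pmp22, a myelin protein gene (S55427_s_at, 897.2 to 1170 and 770.8 to 814.2). Without it the sums were 695.3 to 857 and 439.2 to 826.7, which overlap. The part of this list in the Kcna5 values was not tested. Th, the sympathetic enzyme tyrosine hydroxylase, measured 82.5 ± 16.6 in non-runners and 45.1 ± 20.8 in runners, whereas Dbh, Syt1 and Sox10 were below the control level on every array. S100b measured 242 ± 41.8 and 168 ± 41.5 in S53527mRNA_s_at, and Uchl1 50.1 ± 7.4 and 49.5 ± 18.3 in D10699_at. Mbp, also below the control level on every array, read higher in runners, at 13.2 ± 0.6 and 24.0 ± 5.4. The skeletal and cardiac muscle list (19 of 23 genes) summed to 862.1 to 1090.4 and 771.9 to 999.7, which overlap. Of its 8 tested probe sets 7 were lower, with 0 at an unadjusted limma p under 0.05, and its part in the Kcna5 values was not tested. Within it 16 of 23 probe sets lay below the control level on every array, among them all those of Myh6, Tnnt2, Tnni3 and Actc1. Casq2, Myh1, Acta1 and Casq1 lay above that level on all 6 arrays. Casq2, the brightest at 199.4 to 355.3, was the 1 tested probe set that was higher. Red cell and platelet markers (4 genes) summed to 1557.9 to 2057.6 and 2301.1 to 4588.6, without overlap, and their part was likewise not tested. Endothelial markers (9 genes) summed to 751.4 to 977.4 and 773.5 to 819.9, with 9 of 12 tested probe sets lower. At an unadjusted limma p under 0.05 it was 5 of 12, all lower, against 8.09% of all tested. These 5 read Egfl7, Flt1 and Nos3, and 0 were called after adjustment. Egfl7 measured 118.8 ± 28.3 and 28.6 ± 12.3 in rc_AA893770_g_at. Another Nos3 probe set (AF110508_at), Pecam1 and a Thbd probe set (U90121_at) were higher. The part of these genes in the Kcna5 values was not tested. The sums of the mural, fat, macrophage and fibroblast lists overlapped between groups. Without Lyz2, its brightest probe set, the macrophage list did not overlap, at 1176.1 to 1284.4 and 971.6 to 1141.5. In pooled tissue, fewer cells of a type cannot be told apart from less RNA per cell.

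Kcna2, the Kv1.2 subunit that can assemble with Kv1.5, had no signal above the controls in either of its probe sets. J04731_at measured 2.4, 4.1 and 7.3 in non-runners and 3.3, 7.1 and 2.6 in runners. X16003cds_s_at measured 1.3 to 3.2 over the 6 arrays. The groups overlapped in both, and neither was tested.

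The BK pore gene Kcnma1 has many splice forms and was read by 4 probe sets. The brightest, AF083341_s_at, measured 41.4, 21.1 and 37.0 in non-runners and 37.1, 41.4 and 42.7 in runners, straddling the control level. Both group means, 33.2 in non-runners and 40.4 in runners, lay below that level, so the difference shows no size of change. The difference was 0.29 ± 0.23 (SE, 95% interval -0.23 to 0.82, limma adjusted p = 0.756). The low value was that of non-runner B, the array with the highest beta-actin 3'/5' ratio, and without that array the difference was 0.03. With the beta-actin ratio as a covariate it was -0.03.

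The other 3 Kcnma1 probe sets were removed by the filter. U55995_at measured 11, 10 and 8.4 in non-runners and 3.8, 5.1 and 2.6 in runners, so the groups did not overlap, but all 6 values lay far below the control level and no fold or call is given. U93052_s_at measured 8.2 to 18.0 and U40603_at 1.4 to 5.6 over the 6 arrays, with overlapping groups. All 3 lay below the control level on every array, so no direction for the BK pore transcript is read from them.

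Kcnmb1, the beta1 subunit that raises the calcium sensitivity of the BK channel in smooth muscle, was well above the control level on every array. AB010963_s_at measured 405.6, 309.2 and 456.2 in non-runners and 446.1, 420.6 and 448.9 in runners. AF020712_at measured 641.5, 533.7 and 623.3 in non-runners and 507.4, 376.2 and 592.7 in runners. The lowest value of the first was on non-runner B and that of the second on runner B.

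The 2 Kcnmb1 probe sets differed in sign. The first had a difference of 0.20 ± 0.18 (SE, 95% interval -0.21 to 0.61, limma adjusted p = 0.782) and the second of -0.30 ± 0.20 (-0.75 to 0.15, adjusted p = 0.726). Their log2 values over the 6 arrays had a Pearson correlation of -0.02, although they share the gene and the libraries. Without non-runner B the first difference was 0.04, and without runner B the second was -0.12. Either interval reaches past 0.5 in size, so changes of that order were not resolved with 3 arrays a group.

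Kcnj2, the Kir2.1 pore of strong inward rectifier channels, was read by 1 probe set (AF021137_s_at) at the floor of the array. It measured 5.8, 0.7 and 0.3 in non-runners and 0.8, 0.8 and 0.6 in runners. These values lay below the median of the control probe sets, and the gene was not tested.

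Kcnj8 encodes Kir6.1, the pore of the vascular KATP channel. D42145_at measured 107.6, 102.3 and 118.3 in non-runners and 122.8, 142.1 and 128.4 in runners. Every runner array was above every non-runner array, and all 6 were above the control level. Means were 109 ± 8.2 and 131 ± 9.9 (SD, n = 3), a difference of 0.27 ± 0.15 (log2, SE, 95% interval -0.08 to 0.61) that did not pass limma's test (adjusted p = 0.681). The difference lay between 0.21 and 0.33 in all the alternatives and was 0.21 without non-runner B.

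Kcnj11 encodes Kir6.2, the KATP pore of heart, skeletal muscle and pancreatic beta cells. D86039_at measured 62.5, 63.3 and 57.6 in non-runners and 54.4, 43.1 and 50.7 in runners, lower on each runner array. All 6 values were above the control level, but the runner values lay below the highest control value, 55.4. Means were 61.1 ± 3.1 and 49.4 ± 5.8 (SD, n = 3), a difference of -0.31 ± 0.16 (log2, SE, 95% interval -0.67 to 0.04, limma adjusted p = 0.649). The second probe set from the same source sequence, D86039_g_at, measured 16.9, 24.8 and 24.9 in non-runners and 23.5, 38.5 and 17.6 in runners, all below the control level. No direction is read from it, since its fitted difference of 0.15 ± 0.31 (limma adjusted p = 0.91) turned to -0.14 without runner B and to -0.05 without non-runner A. The correlation of the pair over the 6 arrays was -0.35. With the mean of both probe sets, the difference was -0.08 (limma adjusted p = 0.917).

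Abcc9, the sulphonylurea receptor SUR2 that partners Kir6.1 in vessels, was above the control level on every array in its 3 probe sets. AF019628_at measured 153.6, 203.6 and 158.0 in non-runners and 167.6, 168.8 and 207.9 in runners. AF087838_s_at measured 91.1, 57.0 and 98.6 in non-runners and 109.7, 85.0 and 84.3 in runners. Both overlapped between groups, with differences of 0.09 ± 0.17 (SE, 95% interval -0.31 to 0.49) and 0.19 ± 0.24 (-0.36 to 0.73) and limma adjusted p of 0.908 and 0.847.

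D83598_at, the other Abcc9 probe set, measured 178.8, 110.3 and 98.5 in non-runners and 89.7, 101.6 and 88.1 in runners. Its high value was on non-runner A, and the groups overlapped. The difference was -0.43 ± 0.23 (log2, SE, 95% interval -0.96 to 0.10, limma adjusted p = 0.661), and -0.18 without non-runner A. Over the 6 arrays the 3 probe sets of Abcc9 correlated pairwise at -0.69, -0.52 and -0.09, so they did not follow a shared pattern from array to array.

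Abcc8, the receptor SUR1 of pancreatic and neuronal KATP channels, lay below the control level in both of its probe sets. L40624_at measured 17.8, 11.1 and 16 in non-runners and 13.7, 26.7 and 16.2 in runners. The range of rc_AA799786_s_at was 1.2 to 3.5. Neither was tested, and groups overlapped in both.

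**Figure D2:**
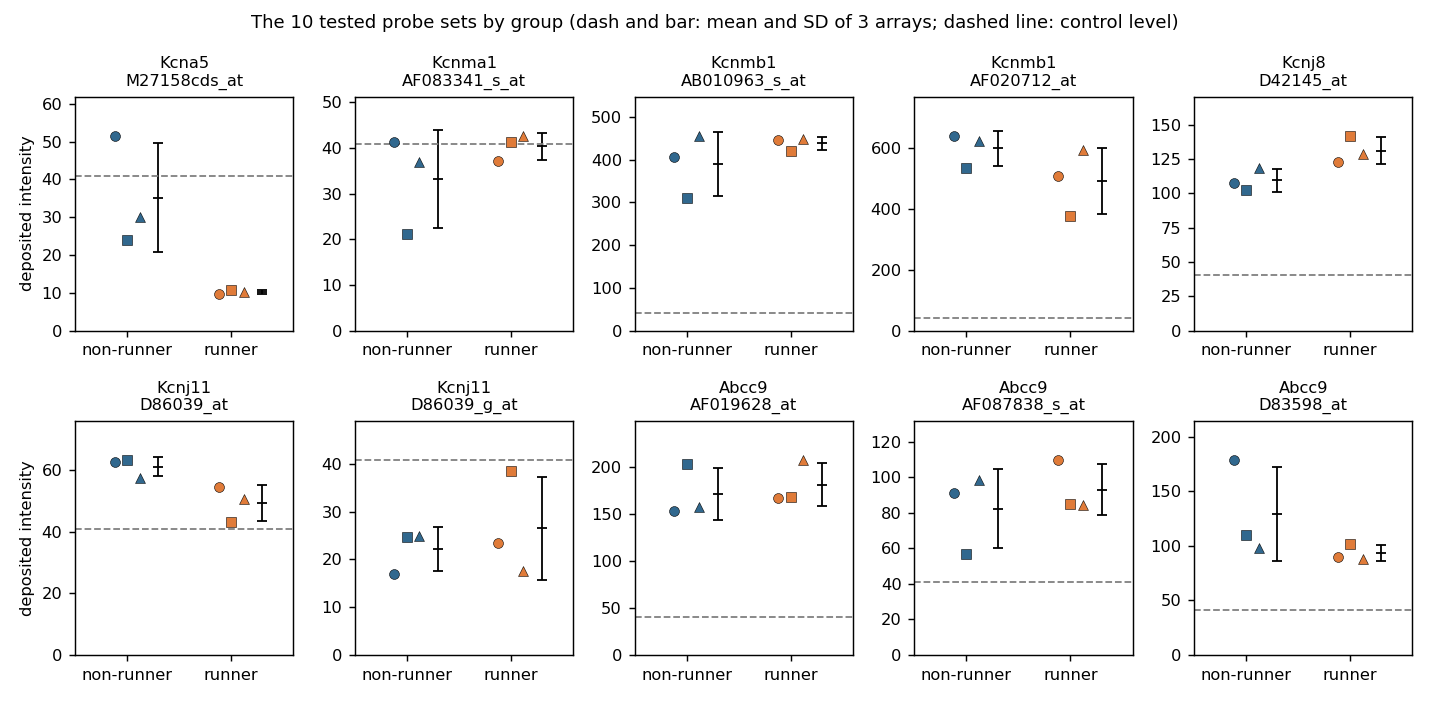
Deposited intensity (linear axes from 0) of the 10 tested probe sets, with circles for chip A, squares for B and triangles for C, and the mean and SD of 3 arrays as a dash and bar. The dashed line is the control level of 40.8. Only the panels of Kcna5, Kcnj8 and D86039_at of Kcnj11 show groups that do not overlap.

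**Figure D3:**
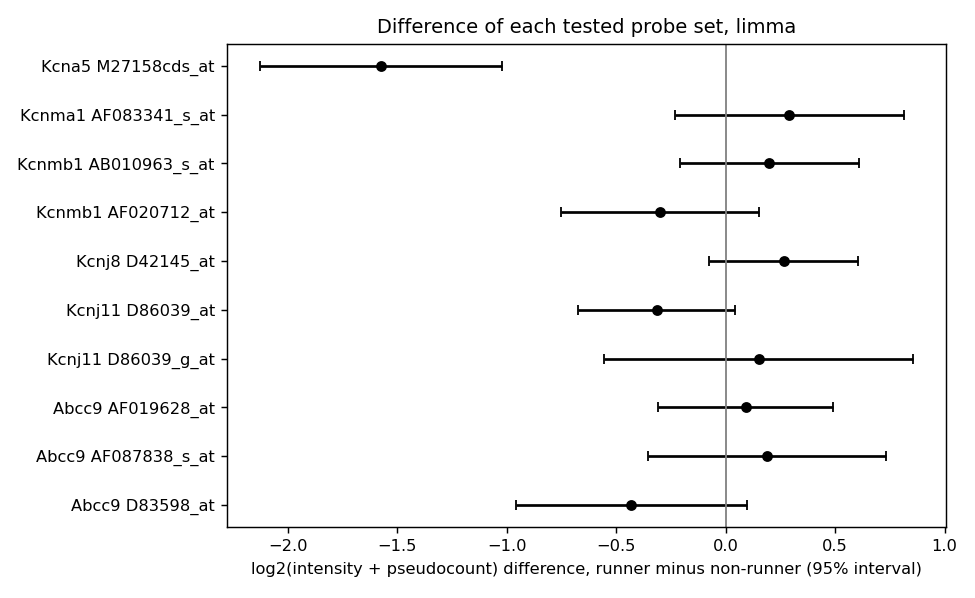
Log2 difference, runner minus non-runner, of the 10 tested probe sets with limma's 95% interval. Kcna5 is drawn at -1.57, a difference between signals not above background from a probe set that passed the filter only through the non-runner arrays, so its interval supports no size of change. The other 9 intervals include 0.

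The remaining potassium channel genes on the chip were all Kcn symbols outside the 9 members, 47 genes with 69 probe sets. Of these, 56 probe sets lay below the control level on every array and 4 above it on every array, and 22 probe sets of 18 genes were tested. By limma 0 were called, against 0% of all 5244 tested. Of the 22, 14 were lower and 8 higher, beside 2649 lower and 2595 higher of all tested. At an unadjusted p under 0.05 it was 1 of 22, against 8.09% of all tested. With the brightest probe set per gene, the median difference was -0.09, beside -0.02 over all 3173 genes tested.

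Kcnk3, the acid-sensitive background channel TASK-1, was that 1 probe set (AF031384_at). It measured 46.6, 13.2 and 34.0 in non-runners and 13.3, 15.4 and 10.2 in runners (limma adjusted p = 0.581). Non-runner B lay among the runner values, and only non-runner A was above the control level. Like Kcna5 it passed the filter through its high group, ranking at the 41.3rd percentile on all arrays, the 49.4th on non-runner and the 33.5th on runner arrays, and no fold is given. The other Kcnk3 probe set (rc_AA925138_s_at) measured 1.4 to 3.9, below the control level on every array, and was not tested. By smallest p, the lower genes after Kcnk3 were Kcnh5, Kcnh8 and Kcnh3, members of the ether-a-go-go family. Kcnh5 was above the control level on 1 array and the tested Kcnh8 probe set on none, so no difference is given for them. Kcnh3 differed by -0.19 in the probe set above the control level on all arrays (AJ007627_at, limma adjusted p = 0.752).

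Kcnh2, the ERG1 channel, was on the higher side in both of its probe sets, each above the control level on every array. U75210_s_at measured 102.5, 89.0 and 125.8 in non-runners and 151.9, 109.9 and 163.0 in runners (difference 0.42 ± 0.21 SE, limma adjusted p = 0.649). Z96106_at measured 79.0, 114.8 and 107.0 against 121.1, 122.9 and 117.4 (0.28 ± 0.18, adjusted p = 0.719), with groups that did not overlap. By smallest p, the higher genes after it were Kcnab2, a Kv beta subunit, Kcnj1, the ROMK channel, and Kcns3, a silent Kv subunit. Kcnab2 differed by 0.17 in a probe set above the control level on 4 arrays (rc_H33656_at, limma adjusted p = 0.812). Its other tested probe set differed by 0.02 (X76724_at) and was above the control level on 1 array. The Kcnj1 and Kcns3 probe sets concerned were above it on 0 arrays, and the Kcnj1 probe set above it on all arrays (S78154_at) lay on the other side, at -0.09.

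Genes that set membrane potential or act on these channels, such as calcium channels, calcium stores, kinases and connexins, formed a list of 51 genes, of which 31 had a tested probe set. By limma 0 of their 49 tested probe sets were called. At an unadjusted p under 0.05 there were 2 higher and 3 lower, a share near the 8.09% of all tested. The median difference over the 31 genes was 0.09, but it ranged from -0.04 to 0.08 when 1 array was left out.

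Atp2a2, the SERCA2 calcium pump of the sarcoplasmic reticulum, measured 74.1 ± 19.8 and 117 ± 3.7 (SD, n = 3) in J04024_at (0.67 ± 0.20 SE), while its other probe sets above the control level differed by 0.06 and -0.04. Atp2b4, a plasma membrane calcium pump, differed by 0.61 ± 0.24 (log2, SE) in a probe set above the control level on 5 arrays, and its other was above it on none. Prkar1a, a regulatory subunit of protein kinase A, which opens KATP channels through phosphorylation, differed by 0.35 ± 0.17. On the lower side, Itpr3, an inositol trisphosphate receptor of calcium stores, measured 195 ± 15.3 and 138 ± 8.5 in L06096_g_at (-0.49 ± 0.14), and its other probe set differed by 0.08. Trpc1, a cation channel, differed by -0.52 ± 0.18 and -0.28 ± 0.18 in its probe sets. Dlg4, a scaffold that binds Kv1 channels, measured 149 ± 28.0 and 111 ± 5.4 (-0.41 ± 0.17). The smallest limma adjusted p of each of these 6 genes lay between 0.48 and 0.649.

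**Figure D4:**
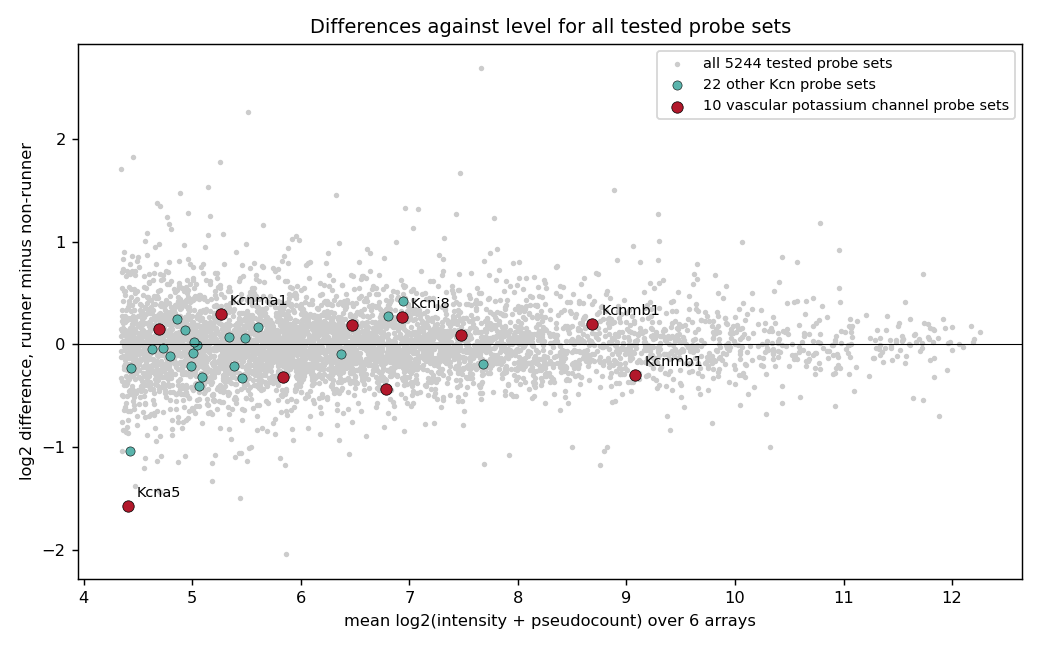
Log2 difference, runner minus non-runner, against mean log2(intensity + 2.4) over 6 arrays for the 5244 tested probe sets (grey), 22 other Kcn probe sets (green) and the 10 members (red). Kcna5 and Kcnk3 lie low at the dim end, both below the control level on all runner arrays, and the other members lie between -0.43 and 0.29.

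To describe how each member varied, the 3 genes with the highest Pearson correlation to its brightest tested probe set over the 6 arrays were taken among tested probe sets with 1 symbol. The 6 points are the same arrays for every gene and include both groups. As the genes were picked for a high correlation, these values are only a description. For Kcna5 they were Tango2, Efemp1 and Thra (r of 0.979 to 0.976), and for Kcnma1 they were Dlst, Taok1 and Gstm1 (0.998 to 0.995). Kcnmb1 was followed most closely by Or1n1b, Chrm5 and Gckr (0.991 to 0.945), and Kcnj8 by Crp, Gtf3c1 and Ap2b1 (0.983 to 0.980). Kcnj11 ran with Agxt, Unc119 and Cpq (0.977 to 0.971), and Abcc9 with Adar, Nthl1 and Cd81 (0.984 to 0.974). Of these genes, Efemp1, Or1n1b, Chrm5, Gckr and Crp had both group means below the control level.

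**Figure D5:**
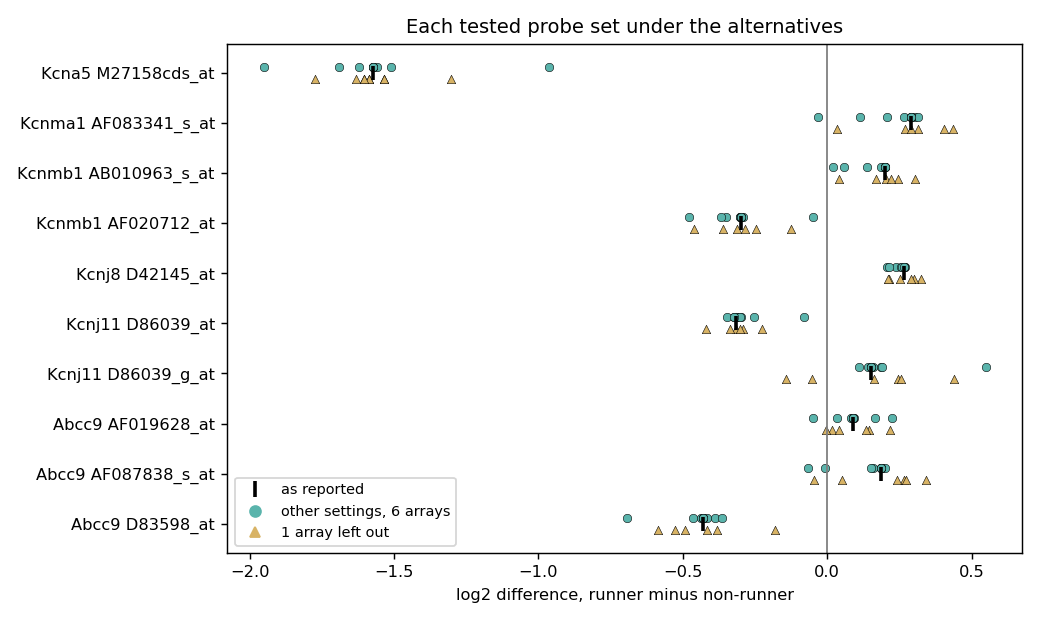
Log2 difference, runner minus non-runner, of each tested probe set as reported (black bar), under other settings with 6 arrays (green circles) and with 1 array left out (yellow triangles). Kcna5 stayed between -1.95 and -0.97, and Kcnj8 between 0.21 and 0.33, while 1 or more settings crossed 0 for Kcnma1, 1 Kcnj11 and 2 Abcc9 probe sets.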

How the data were processed

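Per the labels, each of 6 arrays carried total RNA from 3 pooled aortae. The authors deposited 1 linear intensity for each probe set and array, made by software not named in the labels or file headers. Symbols came from the platform annotation, and the identifiers of all 9 members carried the same symbol in the GRCr8 gene table. The members and gene lists were chosen with earlier results of these data known.

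The analysis used log2(intensity + 2.4), where 2.4 is the 10th percentile of positive values, with quantile normalization that left out 59 control probe sets. The dimmest 40% of probe sets were not tested. Groups were compared over the remaining 5244 with limma 3.58.1 (R 4.3.3), and p-values were adjusted by Benjamini and Hochberg with a threshold of 0.05. Exact permutation was not used, as 0.1 is its smallest two-sided p here. The fit was tested on simulated data. Genes were named by rule: every member, up to 4 higher and 4 lower other Kcn genes and 3 and 3 regulators by smallest p, and the 3 genes most correlated with each member. Alternatives varied the pseudocount (1, 16), normalization, filter, variance model, chip letter as block, array weights, a beta-actin ratio covariate, averaging over probe sets of 1 gene and leaving out each array. Figures used matplotlib 3.10.9.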

Additional observations from a re-analysis of the deposited data

How the results depend on the processing

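The count of 0 member probe sets called held in every alternative. Over all tested probe sets 0 were called with 6 arrays, and 0 to 4 as arrays were left out (2 without non-runner A, 4 without non-runner C). Of 174 alternative values of the 10 member probe sets, 166 kept their sign and 0 passed the threshold. Changes of filter, variance model or block alone cannot alter a fitted difference, so the kept signs include some that were fixed in advance. The fits for Kcna5 that leave arrays out without a filter, and the marker sums without their brightest probe set, were chosen after seeing the data. Signs turned with the beta-actin ratio as covariate for Kcnma1 AF083341_s_at (-0.033) and Abcc9 AF087838_s_at (-0.068), with array weights for the latter (-0.0070), and with the mean of its probe sets for Abcc9 AF019628_at (-0.051). With 1 array left out, Kcnj11 D86039_g_at ranged from -0.14 to 0.44, Abcc9 AF019628_at from -0.0051 to 0.22 and Abcc9 AF087838_s_at from -0.047 to 0.34. The cause was not tested. With the dimmest 60% left out, Kcna5 had no value.

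Deviations of same-letter arrays from their group means correlated at -0.09, -0.04 and -0.05. No different-letter correlations were set beside these, so whether chip letters pair the groups was not settled. The replicate block gave 0 calls among the members. The Kcna5 difference of -1.57 (limma adjusted p = 0.413) could not move with it, as both groups hold every letter. Kcna5, Kcnma1 AF083341_s_at and Kcnj11 D86039_g_at had both means below the control level, so their values show no size of change. Signals below that level limit what can be said of Kcna5, Kcna2, Kcnma1, Kcnj2 and Abcc8.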
